A study of Rattus norvegicus with 6 samples.

Results

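The transcripts described here are 8 direct targets of the tumour suppressor p53, Cdkn1a, Mdm2, Ccng1, Bax, Phlda3, Gadd45a, Btg2 and Aen, measured in rat renal cortex. They were chosen by name, and every non-control probe whose accession maps to one of these symbols was taken, which gave 15 probes of 61526 used and 8 genes of 15277 named. The arrays came from 6 male Sprague-Dawley (Crl:CD(SD)) rats, bought at 5 weeks of age and kept on a basal diet. 3 rats were dosed with corn oil, the vehicle, and 3 with o-anthranilic acid. The dose was 1000 mg/kg/day and dosing lasted 4 weeks in both groups. The labels give no genetic difference between the groups, and the control animals received the vehicle rather than no treatment. The cortex is a mixed tissue, so fewer cells of a type and less RNA per cell cannot be told apart. o-Anthranilic acid is an aromatic amine with a carboxylic acid group, and the comparison asked whether its intake changed cortical transcripts.

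p53 is a transcription factor that is held at low levels by the ubiquitin ligase Mdm2 and builds up when kinases such as Atm and Chek2 sense broken or stalled DNA. It then switches on genes that halt the cell cycle, that repair DNA or that start apoptosis, and also Mdm2 itself, which closes the loop. In the kidney, tubular cells exposed to DNA-damaging drugs are known to raise Cdkn1a and other targets, which is why these genes are used as readouts of genotoxic and tubular stress.

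None of the 8 genes was called different between treated and vehicle animals. limma with Benjamini-Hochberg adjustment over all 41551 kept probes called 0 of the 14 kept probes of these genes, with a smallest adjusted p of 0.450, and it called 0% of all kept probes. 2 of the 14, or 14.3%, had an unadjusted p under 0.05, against 8.45% of all kept probes. A probe was kept if the scanner software called it well above background on at least 3 of the 6 arrays, and 1 probe, of Cdkn1a, was not. The median log2 fold change over the 8 genes, each by its kept probe of highest signal, was -0.04, and 3 of the 8 were above 0. Over 11913 named genes the median was -0.01, and 53.2% were below 0. Groups did not overlap for a weaker Cdkn1a probe and Bax, both lower, and for 2 of the 3 Aen probes, both higher. These were 28.6% of the 14 kept probes, against 14.9% of all kept probes. Btg2 had a larger log2 fold change than Bax, -0.35 at its brighter probe, but its groups overlapped. A Ccng1 probe had levels far apart between animals of the same group.

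RefSeq promoter windows of the GRCr8 assembly, from 250 bases before to 50 after each gene's start, were found for 7 of the 8 genes and searched for the p53 consensus decamer, the 10-base unit that p53 binds in pairs. The motif was searched on both strands; it reads alike on each, and it overlaps no other motif searched. It was present in 4 of the 7 windows and in 7.98% of all 33469 windows. Only exact matches to the consensus were counted, so copies with a mismatch, also beside an exact match, were not searched for. Each of the 4 held an exact decamer once, so no member's window held a pair of exact matches. Such a pair, with at most 13 bases between its decamers, was found in 0.0598% of all windows. The stretches show where the exact decamers lie, and a match is not by itself a binding site. Capitals mark the decamer, and each runs 5′ to 3′ on the strand of the gene.
Cdkn1a: tggctttcagGAACATGTCTtgacttgttc
Ccng1: agacctgcccGGGCAAGCCTtggcattgaa
Gadd45a: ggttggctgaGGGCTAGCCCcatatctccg
Aen: agccgaagccGGGCATGTCCgggcaagcaa
The stretch of Cdkn1a lies at chr20:7150721-7150750 on the plus strand, with the decamer starting at position -201 from the start site. That of Aen lies at chr1:142224493-142224522 on the plus strand, with the decamer at -30. That of Ccng1 is at chr10:25685089-25685118 and that of Gadd45a at chr4:97486828-97486857, both on the minus strand, with the decamers at -232 and -48. The windows of Mdm2, Phlda3 and Btg2 did not hold these letters, which says nothing of p53 binding elsewhere in those genes. Log2 fold changes at the kept probe of highest signal were -0.07 ± 0.11 (SE) for Cdkn1a and -0.05 ± 0.12 for Ccng1. They were 0.05 ± 0.18 for Gadd45a and 0.25 ± 0.08 for Aen. All but that of Aen were smaller than their standard errors, so they give no direction. The genes whose windows lacked the decamer stood at -0.03 for Mdm2, 0.12 for Phlda3 and -0.35 for Btg2. A tie between the decamer and the fold change was not tested.

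All levels below are log2 signals relative to the 75th percentile of the same array, so 0 marks that percentile and a step of 1 is a doubling. Each probe has its own brightness, so a gap between probes is not a difference in transcript level, and only its change from array to array is described. Between 63.7% and 69.3% of probes on an array were well above background, and no spot used was saturated. Treated replicate 2 was alone on its slide and had a median local background of 73, against 32 to 39 on the other arrays. Precision was limited by having 3 arrays per group: over all kept probes the standard error of the log2 fold change had a median of 0.11.

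**Figure D1:**
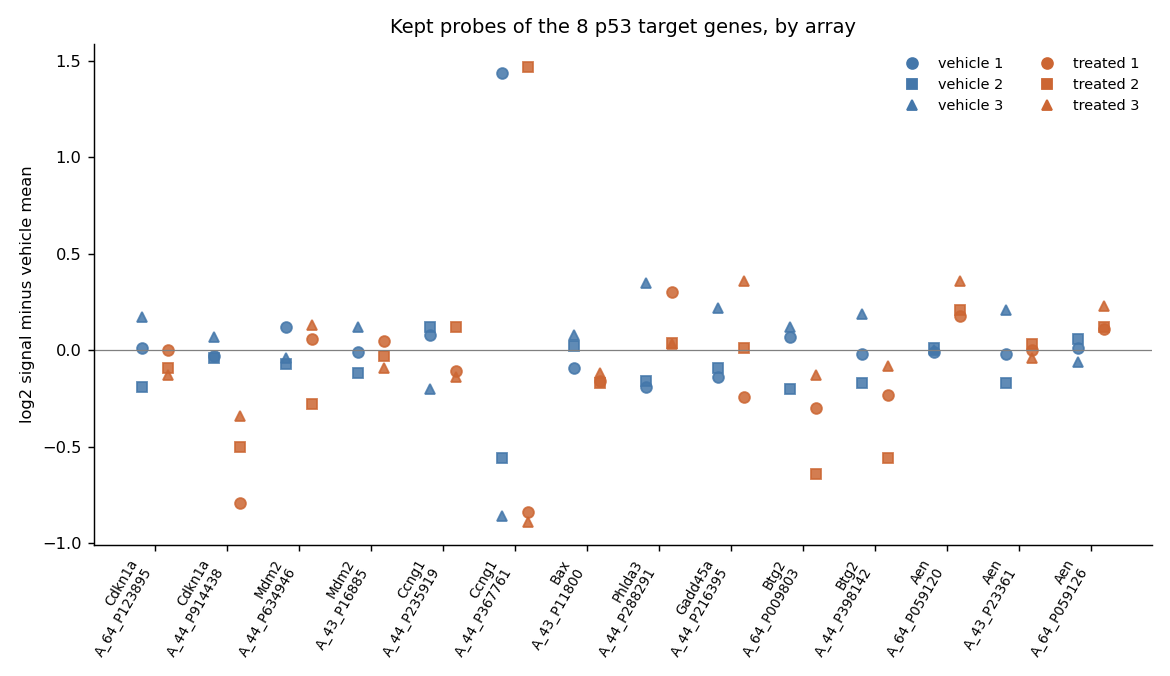
Each point is the log2 signal of a kept probe on 1 array, minus the mean of the 3 vehicle arrays, for the 14 kept probes of the 8 genes (blue, vehicle; orange, treated; marker shape, replicate number). Treated and vehicle points lie apart for the weaker Cdkn1a probe, Bax and 2 Aen probes, and the second Ccng1 probe splits within both groups.

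Mdm2, the ligase that restrains p53 and is itself a p53 target, differed between the groups by less than the spread of the animals. Its brighter probe (A_44_P634946, NM_001108099) read 1.40, 1.21 and 1.24 in the vehicle animals and 1.34, 1.00 and 1.41 in the treated animals. Treated replicate 2 was lowest and treated replicate 3 highest, so the treated values spanned the vehicle ones. The log2 fold change was -0.03 ± 0.13 (SE, n = 3 per group), with a 95% interval from -0.35 to 0.29 and a limma adjusted p of 0.967. The second probe (A_43_P16885) read -1.34, -1.45 and -1.21 against -1.28, -1.36 and -1.42, a log2 fold change of -0.02 ± 0.09. The direction of the brighter probe turned to 0.10 without treated replicate 2. Mdm4, the partner of Mdm2 that blocks p53, had a log2 fold change of -0.03 ± 0.13.

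The target that stops the cell cycle most directly is Cdkn1a (NM_080782), the inhibitor p21 of cyclin-dependent kinases, and its probes did not give the same answer. The brightest probe (A_64_P123895) read 5.05, 4.85 and 5.21 in the vehicle animals and 5.04, 4.95 and 4.91 in the treated animals. The treated values lay inside the vehicle range, and the log2 fold change was -0.07 ± 0.11 (SE, n = 3 per group; 95% interval -0.34 to 0.20; limma adjusted p 0.887). The second probe (A_44_P914438) read 0.82, 0.81 and 0.92 in vehicle and 0.06, 0.35 and 0.51 in treated animals. All 3 treated values were below all 3 vehicle values, and the treated mean of 0.31 ± 0.23 (SD, n = 3) was 1.45-fold lower than the vehicle mean of 0.85 ± 0.06. That log2 fold change, -0.54 ± 0.13 with an interval from -0.85 to -0.23, had an unadjusted p of 0.00503 and a limma adjusted p of 0.450, and it ranged from -0.64 to -0.42 when an array was left out.

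The brighter Cdkn1a probe exceeded the second by 4.23, 4.04 and 4.30 in the vehicle animals and by 4.98, 4.60 and 4.40 in the treated animals. The gap was wider in every treated animal, by 0.47 on average, which restates the values above. An exact permutation test of the group labels gave a p of 0.1. That is the smallest p possible with 3 arrays per group, so the test could not decide. The third Cdkn1a probe (A_44_P515275) cleared the background test on 1 vehicle array and on 0 treated arrays, with processed signals of 20.5, 17.4 and 16.0 against 16.4, 12.1 and 10.5, and no fold change is given for it.

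**Figure D2:**
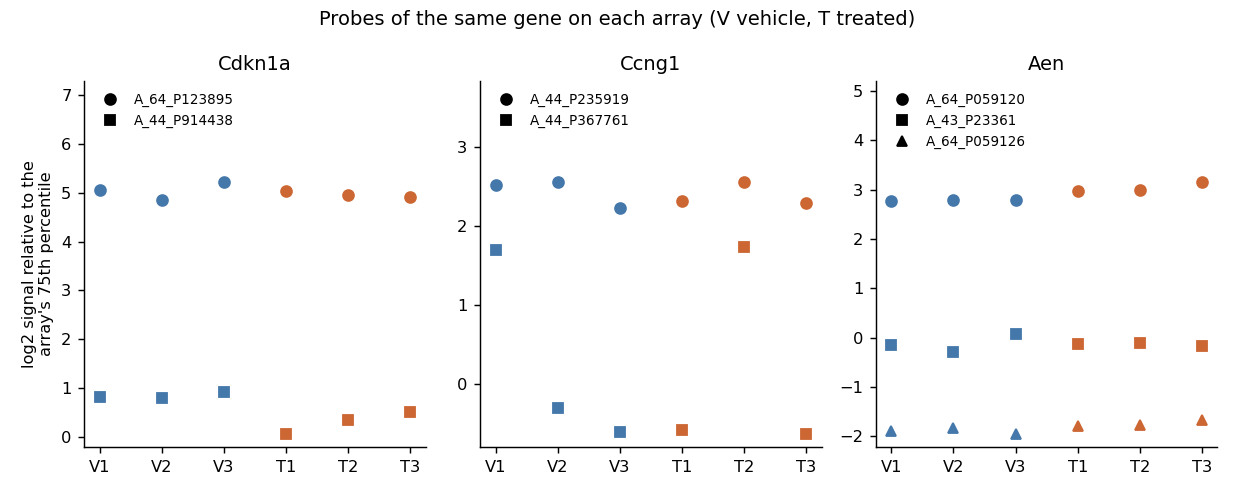
Log2 signal relative to the array's 75th percentile for the kept probes of Cdkn1a, Ccng1 and Aen on vehicle (V1 to V3) and treated (T1 to T3) arrays; marker shape is the probe. The lower Cdkn1a probe is below 0.6 on every treated array, while the second Ccng1 probe is near 1.7 on V1 and T2 alone.

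Ccng1 (NM_012923) encodes cyclin G1, which recruits a phosphatase to Mdm2. Its brighter probe (A_44_P235919) read 2.51, 2.55 and 2.23 in vehicle and 2.32, 2.55 and 2.29 in treated animals. The groups overlapped, and the log2 fold change was -0.05 ± 0.12 (SE, n = 3 per group; limma adjusted p 0.942). The second probe (A_44_P367761) read 1.70, -0.30 and -0.60 in vehicle and -0.58, 1.73 and -0.63 in treated animals. Vehicle replicate 1 and treated replicate 2 stood together, and the lower of these was 4.01-fold above the highest of the other 4 animals. As processed signal these were 3010 and 3260, against 574 to 817.

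The split of the second Ccng1 probe ran across the groups and across the slides, since vehicle replicate 1 shared its slide with 4 of the other arrays and treated replicate 2 did not. Its log2 fold change of -0.09 ± 0.86 had a 95% interval from -2.18 to 2.00, the widest of the 14. It was 0.63 without vehicle replicate 1 and -0.87 without treated replicate 2. The brighter probe ranged over only 0.32 across the 6 arrays. The nearest named neighbours of Ccng1 in the annotation with a kept probe, on either side, were Nudcd2 and Gabrb2. The Nudcd2 probes ranged over 0.43 and 0.29, and the Gabrb2 probe over 0.73. In neither gene did vehicle replicate 1 and treated replicate 2 stand above the rest. The Gabrb2 probe was dim, from -6.06 to -5.32, so it can say little. The Cdkn1a probe that was not kept read -6.53 to -5.50.

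Btg2 (NM_017259), an antiproliferative factor that promotes mRNA decay and also responds to growth signals, was measured by a pair of probes that moved together over the 6 arrays (r = 0.97). The brighter (A_64_P009803) read 0.48, 0.21 and 0.53 in vehicle and 0.11, -0.23 and 0.28 in treated animals. Treated replicate 2 was lowest, and treated replicate 3 lay above vehicle replicate 2, so the groups overlapped. The log2 fold change was -0.35 ± 0.16 (SE, n = 3 per group; 95% interval -0.73 to 0.03; unadjusted p 0.0666; limma adjusted p 0.611). The other probe (A_44_P398142) stood at -0.29 ± 0.16. Without treated replicate 2 the values were -0.21 and -0.15.

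Gadd45a (NM_024127), a stress sensor that binds Pcna and activates stress kinases, read 3.18, 3.23 and 3.54 in vehicle and 3.08, 3.33 and 3.68 in treated animals. The treated range enclosed the vehicle range, and the log2 fold change was 0.05 ± 0.18 (SE, n = 3 per group; 95% interval -0.39 to 0.48; limma adjusted p 0.961). It turned to -0.11 without treated replicate 3.

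Among the targets tied to cell death, Bax (NM_017059), which permeabilises mitochondria, read 0.80, 0.91 and 0.97 in vehicle and 0.73, 0.72 and 0.77 in treated animals. Every treated value was below every vehicle value, by a narrow margin. The log2 fold change was -0.15 ± 0.08 (SE, n = 3 per group; 95% interval -0.34 to 0.03), or 1.11-fold lower, and its limma adjusted p was 0.632. Without an array it ranged from -0.20 to -0.12. Bax had a single probe on the array.

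Phlda3 (NM_001012206), which competes with the kinase Akt for membrane lipids, read -3.75, -3.72 and -3.21 in vehicle and -3.26, -3.52 and -3.53 in treated animals. Vehicle replicate 3 was the highest of the 6, and the log2 fold change was 0.12 ± 0.17 (SE, n = 3 per group; limma adjusted p 0.869). It ranged from 0.03 without vehicle replicate 1 to 0.30 without vehicle replicate 3. It was 0.05 after normexp background correction.

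Aen (NM_001108487) encodes an exonuclease induced by p53 during apoptosis and had the only member probe with a higher signal at an unadjusted p under 0.05. The brightest of its 3 probes (A_64_P059120) read 2.78, 2.80 and 2.79 in vehicle and 2.97, 3.00 and 3.15 in treated animals. The vehicle animals were within 0.02 of each other and all treated animals were above them. The log2 fold change was 0.25 ± 0.08 (SE, n = 3 per group; 95% interval 0.06 to 0.44), or 1.19-fold, with an unadjusted p of 0.0176 and a limma adjusted p of 0.503. The dimmest probe (A_64_P059126) also had groups that did not overlap, at -1.89, -1.84 and -1.96 against -1.79, -1.78 and -1.67, a log2 fold change of 0.15 ± 0.08. The third (A_43_P23361) read -0.15, -0.30 and 0.08 against -0.13, -0.10 and -0.17, at -0.01 ± 0.11. Over the 6 arrays the brightest probe correlated with the dimmest at r = 0.92 and with the third at r = -0.12.

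**Figure D3:**
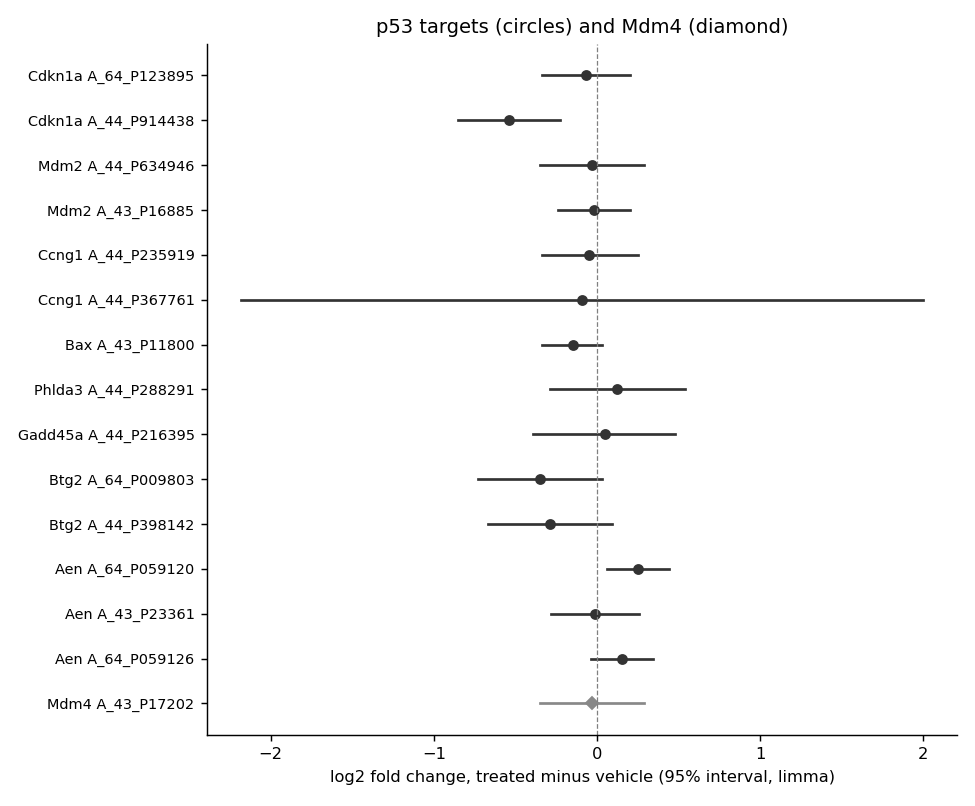
Log2 fold change of treated over vehicle animals with its 95% interval from limma, for the 14 kept probes of the 8 targets (circles) and the probe of Mdm4 (diamond). Of the 14 intervals, 2 exclude 0, those of the second Cdkn1a probe (below) and the brightest Aen probe (above).

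Across the 14 probes, groups that did not overlap were found for 4, or 28.6%, of which 2 were higher and 2 lower. Over all kept probes the share was 14.9%, with 6.3% higher and 8.61% lower. Counting each gene once, by its probe of highest signal, 2 of 8 did not overlap, Aen and Bax, which lay in opposite directions, and the share over all named genes was 15.6%. The 95% interval lay inside -1 to 1 for 13 of the 14 probes, the exception being the second Ccng1 probe, and the upper bound was below 0.5 for 12. These intervals are for each probe alone and are not adjusted for the number of probes.

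The 8 genes showed no common pattern over the animals. Pearson's r between their probes of highest signal, over the 6 arrays, had a median of 0.07 in 28 pairs and ran from -0.79 for Ccng1 with Phlda3 to 0.69 for Btg2 with Mdm2. These values are descriptive, since the arrays share their scaling and 6 points fix r loosely. The named genes most like Cdkn1a by r were Pxmp2 (0.989), Rc3h2 (0.988) and Npw (0.981), and 1.08% of 11912 named genes had r above 0.9. Those most like Mdm2 were Tent4a (0.991), Olr673 (0.972) and C1qtnf3 (0.971), and 0.479% had r above 0.9.

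**Figure D4:**
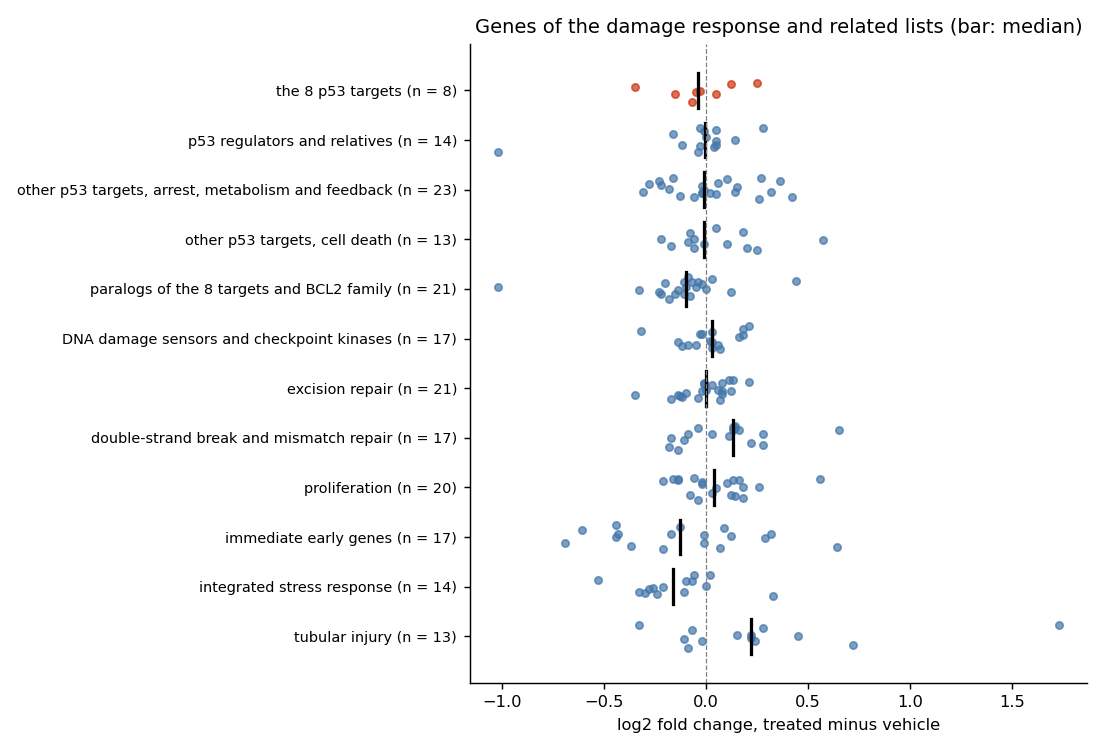
Log2 fold change of treated over vehicle animals for each measured gene of the 8 targets (red) and of 11 related gene lists (blue), each gene by its kept probe of highest signal; the bar is the median. The medians of the p53 target lists lie within 0.05 of 0, and that of the integrated stress response is -0.16.

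Other p53 targets lay on both sides of 0. None of the genes in any list below passed limma's adjusted threshold. Of 23 measured targets in arrest, metabolism and feedback, 11 were above and 12 below 0, with a median of -0.01. 3 higher and 1 lower had an unadjusted p under 0.05, or 17.4%, where the share over all named genes was 8.15%, with 3.45% higher and 4.7% lower. Cpt1c, a carnitine acyltransferase homologue, read -3.76, -3.53 and -3.75 in vehicle and -3.32, -3.44 and -3.19 in treated animals, a log2 fold change of 0.36 ± 0.10 (SE). Polk, a DNA polymerase that copies past lesions, stood at 0.26 ± 0.08, with all treated values above all vehicle values. Sesn2, a sestrin that is also a target of the integrated stress response, went the other way, at -0.15, 0.03 and -0.16 against -0.29, -0.37 and -0.46, a log2 fold change of -0.28 ± 0.09. 

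Of 13 measured p53 targets in cell death, 6 were above and 7 below 0, with a median of -0.01. Groups did not overlap for 5 of these, 3 higher and 2 lower, where 6.87% of named genes were higher and 8.76% lower without overlap. Fas, the death receptor, read -2.90, -2.79 and -2.79 in vehicle and -2.60, -2.56 and -2.57 in treated animals. Its log2 fold change was 0.25 ± 0.07 (SE, n = 3 per group), with an unadjusted p of 0.0117 and a limma adjusted p of 0.486, and it was 0.15 after normexp background correction. Igfbp3, a binding protein of insulin-like growth factors, stood at 0.57 ± 0.19, and Perp, a membrane protein of cell junctions, at -0.17 ± 0.07.

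Of the 14 measured regulators and relatives of p53, 6 were above and 8 below 0, with a median of 0.00. Unadjusted limma p was under 0.05 for 0 of these, against 8.15% of named genes, and so short a list cannot separate 0 from that share. The smallest p belonged to Tp73, a p53 relative, at -1.56, -1.57 and -0.52 in vehicle and -2.62, -2.79 and -1.30 in treated animals. Replicate 3 was the highest in both groups, and the log2 fold change of -1.02 ± 0.48 (SE) was -0.67 without vehicle replicate 3. Cop1, a ubiquitin ligase for p53, stood at 0.14 ± 0.08, and Cdkn2a, the tumour suppressor locus that includes an Mdm2 inhibitor, at 0.28 ± 0.17, with 0.44 without treated replicate 1 and 0.13 without treated replicate 3.

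Paralogs of the 8 genes and the BCL2 family leaned lower: 18 of 21 were below 0, with a median of -0.10, and 85.7% below 0 compares with 53.2% of named genes. By animal, the mean over the list, relative to the vehicle animals, was -0.01, -0.13 and 0.14 in vehicle animals. It was -0.16, -0.10 and -0.11 in treated animals, so the groups overlapped. The median was -0.16 without vehicle replicate 2. It was -0.07 without vehicle replicate 1, without vehicle replicate 3 and after normexp background correction. 2 were at an unadjusted p under 0.05, both lower, or 9.52% where 8.15% of named genes were. Mcl1, an antiapoptotic BCL2 protein, read 1.93, 1.97 and 1.87 in vehicle and 1.66, 1.52 and 1.60 in treated animals, a log2 fold change of -0.33 ± 0.07 (SE, n = 3 per group) with an unadjusted p of 0.00417 and a limma adjusted p of 0.443. Gadd45g, the relative of Gadd45a, read 2.51, 1.76 and 3.33 against 1.28, 1.65 and 1.61, and its value of -1.02 ± 0.38 was -0.62 without vehicle replicate 3. Phlda2, the relative of Phlda3, stood at 0.44 ± 0.20.

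The sensors and kinases that signal to p53 had a median near 0, with values from -0.32 to 0.21. Of 17 measured, 10 were above and 7 below 0, with a median of 0.03 that turned to -0.03 without treated replicate 3. Unadjusted limma p was under 0.05 for 0 of them, against 8.15% of named genes. A list this short cannot separate 0 from that share. Mdc1 and Atrip, adaptors at damaged DNA, both stood at 0.18, with standard errors of 0.08 and 0.10, and Nbn, of the complex that binds broken ends, at -0.32 ± 0.18. Mdc1 was at 0.10 after normexp background correction, Atrip at 0.11 without vehicle replicate 2 and Nbn at -0.12 without treated replicate 3.

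Excision repair genes were split, 10 above and 11 below 0, with a median of 0.00. Neil1, a glycosylase for oxidised bases, read -1.35, -1.41 and -1.59 in vehicle and -1.72, -1.80 and -1.89 in treated animals, a log2 fold change of -0.35 ± 0.09 (SE). Ogg1, the glycosylase for oxidised guanine, read 0.76, 0.58 and 0.62 against 0.87, 0.91 and 0.82, at 0.21 ± 0.08. Ung, which removes uracil from DNA, stood at -0.14 ± 0.09.

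Genes of double-strand break and mismatch repair leaned higher: 11 of 17 were above 0, with a median of 0.13, and for 6 all treated values exceeded all vehicle values, or 35.3%, against 6.87% of named genes. Unadjusted limma p was under 0.05 for 2 of the 17, or 11.8%, against 8.15% of named genes. The mean over the list, relative to the vehicle animals, was -0.04, 0.03 and 0.01 in vehicle animals. It was 0.11, 0.14 and 0.02 in treated animals, so the groups overlapped. The median was 0.07 after normexp background correction, 0.05 without treated replicate 1 and 0.08 without treated replicate 2. Fancd2, of the cross-link repair pathway, read -4.82, -5.00 and -4.85 in vehicle and -4.15, -4.06 and -4.52 in treated animals. Its log2 fold change was 0.65 ± 0.14 (SE, n = 3 per group), with an unadjusted p of 0.00327 and a limma adjusted p of 0.431, and it was 0.32 after normexp background correction. Pms2, of mismatch repair, stood at 0.22 ± 0.07, or 0.13 after normexp background correction. Lig4, the ligase of end joining, read -1.85, -1.54 and -1.49 against -1.39, -1.23 and -1.41, at 0.28 ± 0.12, and at 0.17 without vehicle replicate 1.

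Proliferation genes, many of which p53 and Cdkn1a repress, had a median of 0.04, with 11 of 20 above 0. Ccne1, a cyclin of entry into DNA synthesis, read -3.25, -3.20 and -3.56 in vehicle and -2.72, -3.00 and -2.63 in treated animals, a log2 fold change of 0.56 ± 0.14 (SE) that was 0.35 after normexp background correction. Mcm6, of the replication helicase, stood at 0.18 ± 0.07, and Birc5, of the mitotic spindle, at 0.26 ± 0.13.

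Btg2 and Gadd45a also respond to signals other than p53, so the lists of those signals were read beside them. Immediate early genes had a median of -0.13, and 11 of 17 were below 0. 4 of the 17 were at an unadjusted p under 0.05, all lower, or 23.5% against 8.15% of named genes. The median was 0.03 without vehicle replicate 3, 0.01 without treated replicate 2, -0.07 without vehicle replicate 2 and -0.23 without treated replicate 1. Dusp1, Klf6 and Jun, a phosphatase and transcription factors of this response, stood at -0.69 ± 0.15, -0.37 ± 0.10 and -0.44 ± 0.15 (SE). Dusp1 was at -0.37 after normexp background correction. The 6 genes above 0 included Egr1, at 0.64 ± 0.30 with an unadjusted limma p of 0.0752. In the integrated stress response 12 of 14 were below 0, with a median of -0.16, and 5 were lower at an unadjusted p under 0.05, or 6 of 14 with the higher Trib3 (0.33 ± 0.09), which is 42.9% against 8.15% of named genes. Herpud1, Atf4 and Psat1 stood at -0.53 ± 0.11, -0.33 ± 0.08 and -0.26 ± 0.07. Sesn2, already counted among the p53 targets in arrest, metabolism and feedback, was also among the 5 lower genes. Tubular injury genes had a median of 0.22, with 8 of 13 above 0, and that median ran from 0.06 without vehicle replicate 1 to 0.33 without vehicle replicate 3, with 0.10 without treated replicate 2, 0.13 without vehicle replicate 2 and 0.14 without treated replicate 3. Fgb, Krt8 and Havcr1, a fibrinogen chain, a keratin and the injury protein KIM-1, stood at 0.45 ± 0.10, -0.33 ± 0.08 and 0.72 ± 0.19. Havcr1 was at 0.25 after normexp background correction. The part of these responses in the values of Btg2 and Gadd45a was not tested.

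The labelled tissue carried its markers. All 12 proximal tubule markers listed were measured, with a median of 0.00 and a summed linear level, relative to the 75th percentile, of 1810 to 1900 in both groups. All 8 podocyte markers were measured too, with sums of 34.6 to 40.5 in vehicle and 31.7 to 39.4 in treated animals. Of these 8, 7 were below 0, or 87.5% against 53.2% of named genes, with a median of -0.14 that ran from -0.21 without treated replicate 3 to -0.05 without vehicle replicate 3. The 7 measured erythrocyte genes were all above 0, where 53.2% of named genes were below 0, with sums of 626 to 834 against 808 to 992. Their median of 0.40 ran from 0.33 without vehicle replicate 1 to 0.49 without treated replicate 1. Unadjusted limma p was under 0.05 for 3 of the 7, or 42.9%, against 8.15% of named genes. Of 11 macrophage and myeloid genes 10 were below 0, or 90.9% against 53.2% of named genes, with sums of 115 to 140 against 96.3 to 125. Their median of -0.12 ran from -0.25 without treated replicate 2 to -0.05 without treated replicate 1. The sums of 10 lymphocyte genes were 1.73 to 1.94 against 1.32 to 2.28. The lymphocyte median of -0.01 was -0.22 without treated replicate 2 and 0.27 without treated replicate 1. Medians of the other lists were 0.19 for fibroblast and mesangium, -0.13 for endothelium, -0.05 for thick ascending limb, -0.12 for distal convoluted tubule, -0.06 for collecting duct and -0.01 for inner medulla. Single arrays moved several of these. Without treated replicate 3 the median was 0.06 for fibroblast and mesangium, -0.23 for endothelium and -0.12 for collecting duct. The thick ascending limb ran from -0.18 without vehicle replicate 2 to 0.04 without vehicle replicate 3, the collecting duct from -0.16 without vehicle replicate 1 to -0.03 without vehicle replicate 3, and the inner medulla from -0.05 without treated replicate 2 to 0.02 without vehicle replicate 1. The part of these cells in the values of the 8 genes was not tested.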

How the data were processed

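Total RNA of the renal cortex was labelled with Cy3 and hybridised to 1-colour Agilent arrays, 1 per animal, and the submitters' processing notes name Agilent Feature Extraction 10.7. Per the file headers, the scanner files deposited by the authors hold linear intensity values: a background-subtracted processed signal, not normalised between arrays, and median spot and background signals. The value table deposited by the authors is a ratio, equal to the processed signal over the array's 75th percentile by comparison with the scanner files. Its column medians were 0.104, 0.106 and 0.103 for vehicle and 0.106, 0.104 and 0.103 for treated replicates. Its columns match scanner files of the same group under other replicate numbers, so replicates are named here by scanner file. The labels call the replicates biological. 84 external RNA control probes and 47 probes with an outlier flag were left out. Probes were named through RefSeq accessions (27435 of 61526 named). The log2 processed signal minus each array's 75th percentile was fitted with limma 3.58.1 in R 4.3.3 over every kept probe, with a threshold of 0.05 on the Benjamini-Hochberg adjusted p. The fit was tested on simulated data. List genes are represented by their kept probe of highest mean signal, and of each list the 3 genes with the smallest p were named. Trib3 and Egr1 were also named, a choice made after values were seen, and are not among the probes recomputed under alternatives. Sesn2 was counted both in the arrest list and in the integrated stress response, and Slc4a1 in both the collecting duct and erythrocyte lists. The members, lists and tests were chosen with earlier results of these data known. Listed genes without a named, kept probe were not analysed here. A few genes are not reported here and were left out of the lists and their counts. Alternatives were normexp background correction (offset 50, on median signals, since mean signals were not used here), other scalings, the authors' values, other filters, 1 probe per gene, a variance trend with robust fit, replicate and slide blocks, and each array left out.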

Additional observations from a re-analysis of the deposited data

How the results depend on the processing

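Over 17 alternatives, limma called 0 probes of the 8 genes in each. The median log2 fold change of the 8 genes stayed between -0.08 and 0.00. Over all probes, the count past the threshold was 0 as reported, 6 with normexp background correction, 6 in a robust fit with a variance trend, 1 with the filter of all 6 arrays, 4 with the slide as a block, and from 0 to 4 with an array left out (3 lacking vehicle replicate 2, 3 lacking treated replicate 1, 4 lacking treated replicate 2). With the replicate number as a block it was 0 over all probes and 0 among the 8 genes. Same-numbered animals had correlations of deviations of 0.01, -0.04 and -0.01, and animals of other numbers had from -0.08 to 0.09. Deviations from means of 3 animals cannot show whether same-numbered animals shared anything beyond the number. The slide as a block equals leaving out treated replicate 2, which is alone on its slide.

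Of 810 probe values recomputed for the 48 probes of named genes, 17 changed sign, all of them of probes that were not called, and none passed the threshold. With normexp, Aen A_43_P23361 was 0.01. With the slide as a block, Mdm2 A_44_P634946 was 0.10. With an array left out, values ran from -0.16 to 0.02 for Cdkn1a A_64_P123895, -0.11 to 0.10 for Mdm2 A_44_P634946, -0.08 to 0.04 for Mdm2 A_43_P16885, -0.14 to 0.01 for Ccng1 A_44_P235919, -0.87 to 0.63 for Ccng1 A_44_P367761, -0.11 to 0.19 for Gadd45a A_44_P216395, -0.10 to 0.09 for Aen A_43_P23361, and -0.11 to 0.09 for Mdm4 A_43_P17202. The cause was not tested. Of the 15 probes of the 8 genes, the dimmest Cdkn1a probe was well above background on too few arrays to be given a fold change.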
